A study of Mus musculus with 9 samples.

Results

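Cyclins, the cyclin-dependent kinases (CDKs) that they activate and the CDK inhibitors were followed as a gene family in the pressure-loaded left ventricle of newborn mice. Members were the genes whose symbol is Ccn with a letter and an optional number, Cdk with a number, or Cdkn with a number and a letter from a to d. This gave 46 of the 16698 genes in the table, of which 22 were cyclins, 17 were CDKs and 7 were inhibitors. Pressure overload came from transverse aortic constriction (TAC), a surgical tie around the arch of the aorta against which the ventricle has to eject. All mice were of the outbred ICR/CD1 strain, and every ventricle was taken at postnatal day 14. The 9 libraries fell into groups of 3: TAC on postnatal day 1 (14dp1dTAC in the labels, day-1 TAC here), TAC on postnatal day 7 (7dp7dTAC, day-7 TAC here) and sham surgery, for which the labels give no day of surgery. The TAC groups differed both in the age at surgery and in the time under load, so these cannot be told apart. No genetic change is named for any group, and the labels leave unsaid whether each sample is an animal of its own; p-values therefore reflect only how far these samples spread, which may be technical.

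Cyclins are regulatory subunits that rise and fall through the cell cycle and switch on their CDK partners. D-type cyclins with Cdk4 or Cdk6 drive a cell through G1 by phosphorylating the retinoblastoma family of pocket proteins, E-type and A-type cyclins with Cdk2 drive DNA synthesis, and A-type and B-type cyclins with Cdk1 drive mitosis. The INK4 inhibitors bind Cdk4 and Cdk6, and the CIP/KIP inhibitors bind cyclin and CDK complexes more broadly. Other members act mainly in transcription by RNA polymerase II. Mouse cardiomyocytes divide for a few days after birth and then largely leave the cell cycle, while fibroblasts, endothelial cells and immune cells of the heart can still divide, and all of these cells contribute to RNA from whole ventricle.

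Among the members, the mitotic genes Cdk1, Ccnb1, Ccnb2 and Ccnf all had their highest value in day-1 TAC replicate 1. So did Ccna2, Ccne1 and Ccne2. For the mitotic genes, the 250 bases before their start sites are shown, from RefSeq on GRCm38.p6, all on the minus strand. Cdk1 encodes the mitotic kinase (chr10:69352913-69353162), Ccnb1 and Ccnb2 its B-type cyclins (chr13:100786487-100786736 and chr9:70421555-70421804), and Ccnf the F-box cyclin of a ubiquitin ligase (chr17:24251410-24251659). Each sequence is given 5′ to 3′ along the gene's own strand. Capitals mark the letters of 4 motifs searched on both strands: CCAAT, then the motif TTTGAA, then the E2F letters TTTGGCGC, TTTCCCGC, TTTGCCGC or TTTCGCGC, and last TGACGTCA.
Cdk1: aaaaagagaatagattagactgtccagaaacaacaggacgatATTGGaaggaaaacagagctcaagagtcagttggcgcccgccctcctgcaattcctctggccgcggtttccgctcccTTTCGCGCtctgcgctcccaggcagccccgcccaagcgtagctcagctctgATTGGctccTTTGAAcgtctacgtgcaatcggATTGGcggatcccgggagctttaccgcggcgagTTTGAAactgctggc
Ccnb1: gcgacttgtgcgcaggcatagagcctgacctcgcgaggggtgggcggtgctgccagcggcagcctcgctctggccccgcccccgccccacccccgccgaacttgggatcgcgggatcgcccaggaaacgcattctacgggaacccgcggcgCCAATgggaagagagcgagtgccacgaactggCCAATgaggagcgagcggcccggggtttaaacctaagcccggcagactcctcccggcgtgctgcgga
Ccnb2: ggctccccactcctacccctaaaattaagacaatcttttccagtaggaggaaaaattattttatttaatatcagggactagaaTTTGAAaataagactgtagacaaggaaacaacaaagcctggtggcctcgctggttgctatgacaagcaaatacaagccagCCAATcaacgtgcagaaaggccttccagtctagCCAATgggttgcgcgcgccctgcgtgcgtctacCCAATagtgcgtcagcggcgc
Ccnf: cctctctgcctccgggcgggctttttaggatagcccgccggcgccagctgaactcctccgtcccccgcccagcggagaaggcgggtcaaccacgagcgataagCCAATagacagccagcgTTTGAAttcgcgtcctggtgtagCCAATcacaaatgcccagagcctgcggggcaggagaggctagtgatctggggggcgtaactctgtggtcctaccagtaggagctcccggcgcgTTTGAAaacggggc
CCAAT is the letters bound by the factor NF-Y, and TTTGAA is the core of the cell cycle homology region bound by the DREAM and MuvB complexes. CCAAT was found 3, 2, 3 and 2 times in the windows of Cdk1, Ccnb1, Ccnb2 and Ccnf. TTTGAA was found 2 times in that of Cdk1, 1 time in that of Ccnb2 and 2 times in that of Ccnf, and not in these letters in that of Ccnb1. The window of Ccne1, highest in the same library, held 0 matches to each of the 4 motifs. Ccna2 and Ccne2 had no window to search. Of the 32851 promoter windows of the same length, 33.85% held CCAAT, 15.99% held TTTGAA, 1.86% held 1 of the E2F forms and 1.55% held TGACGTCA. Windows were found for 36 of the 46 members, and of their 41 windows 17 held CCAAT, 6 held TTTGAA, 3 held an E2F form and 2 held TGACGTCA. By GENCODE, Cdk1, Ccnb1 and Ccnf start at 69352938, 100786570 and 24251484, inside the windows shown. Some letters printed as upstream therefore lie within the gene by that annotation. A match is a run of letters and was not tested as a binding site.

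Recovered depth was 18538900 to 26529531 reads per library. Ventricular cardiomyocyte markers dominated all libraries, with Myl2 at 13.77 to 14.11 and Myh6 at 14.94 to 15.88 on the deposited log2 scale, while the atrial markers ran at 5.87 to 7.96 for Myl4, 4.68 to 6.78 for Myl7, 1.52 to 4.18 for Sln and at or below -0.68 for Bmp10. One library stood apart by sex-linked genes: day-1 TAC replicate 3 had Xist at 9.09 and the Y-linked Ddx3y at -0.10, against at most 0.93 and at least 7.37 in the other 8.

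With day-1 TAC, 15 of the 42 members that passed a filter on low values were called against sham (limma, Benjamini-Hochberg adjusted p under 0.05 over all 13712 genes tested). That is 35.7% of the tested members, beside 34.8% of all tested genes. Among them 6 rose and 9 fell (14.3% and 20.5% of all tested genes did), and the median log2 fold change of the members was -0.08 against -0.04 over all tested genes. With day-7 TAC, 10 of 42 members were called, 5 higher and 5 lower, which is 23.8% beside 28.9% of all tested genes (13.8% higher and 15.1% lower), with a median of 0.01 against -0.01. Both comparisons use the same sham libraries. Between the TAC groups 6 of 42 members were called, 1 higher and 5 lower with day-1 TAC, which is 14.3% beside 16.7% of all tested genes, of which 6.42% were higher and 10.3% lower. The F test over the 3 groups called 17 members, 40.5% of those tested, beside 44.4% of all tested genes. As a family, then, the members were called about as often as other genes. When each library was rescaled to the same linear sum, the split of the day-1 TAC calls was 7 higher and 7 lower among members, and 60.1% of all calls were higher against 41.1% as deposited. That rescaling took the median of all genes from -0.04 to 0.06 with day-1 TAC. With day-7 TAC it gave 6 members higher and 5 lower, and 59.7% of all calls higher against 47.7%.

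**Figure D1:**
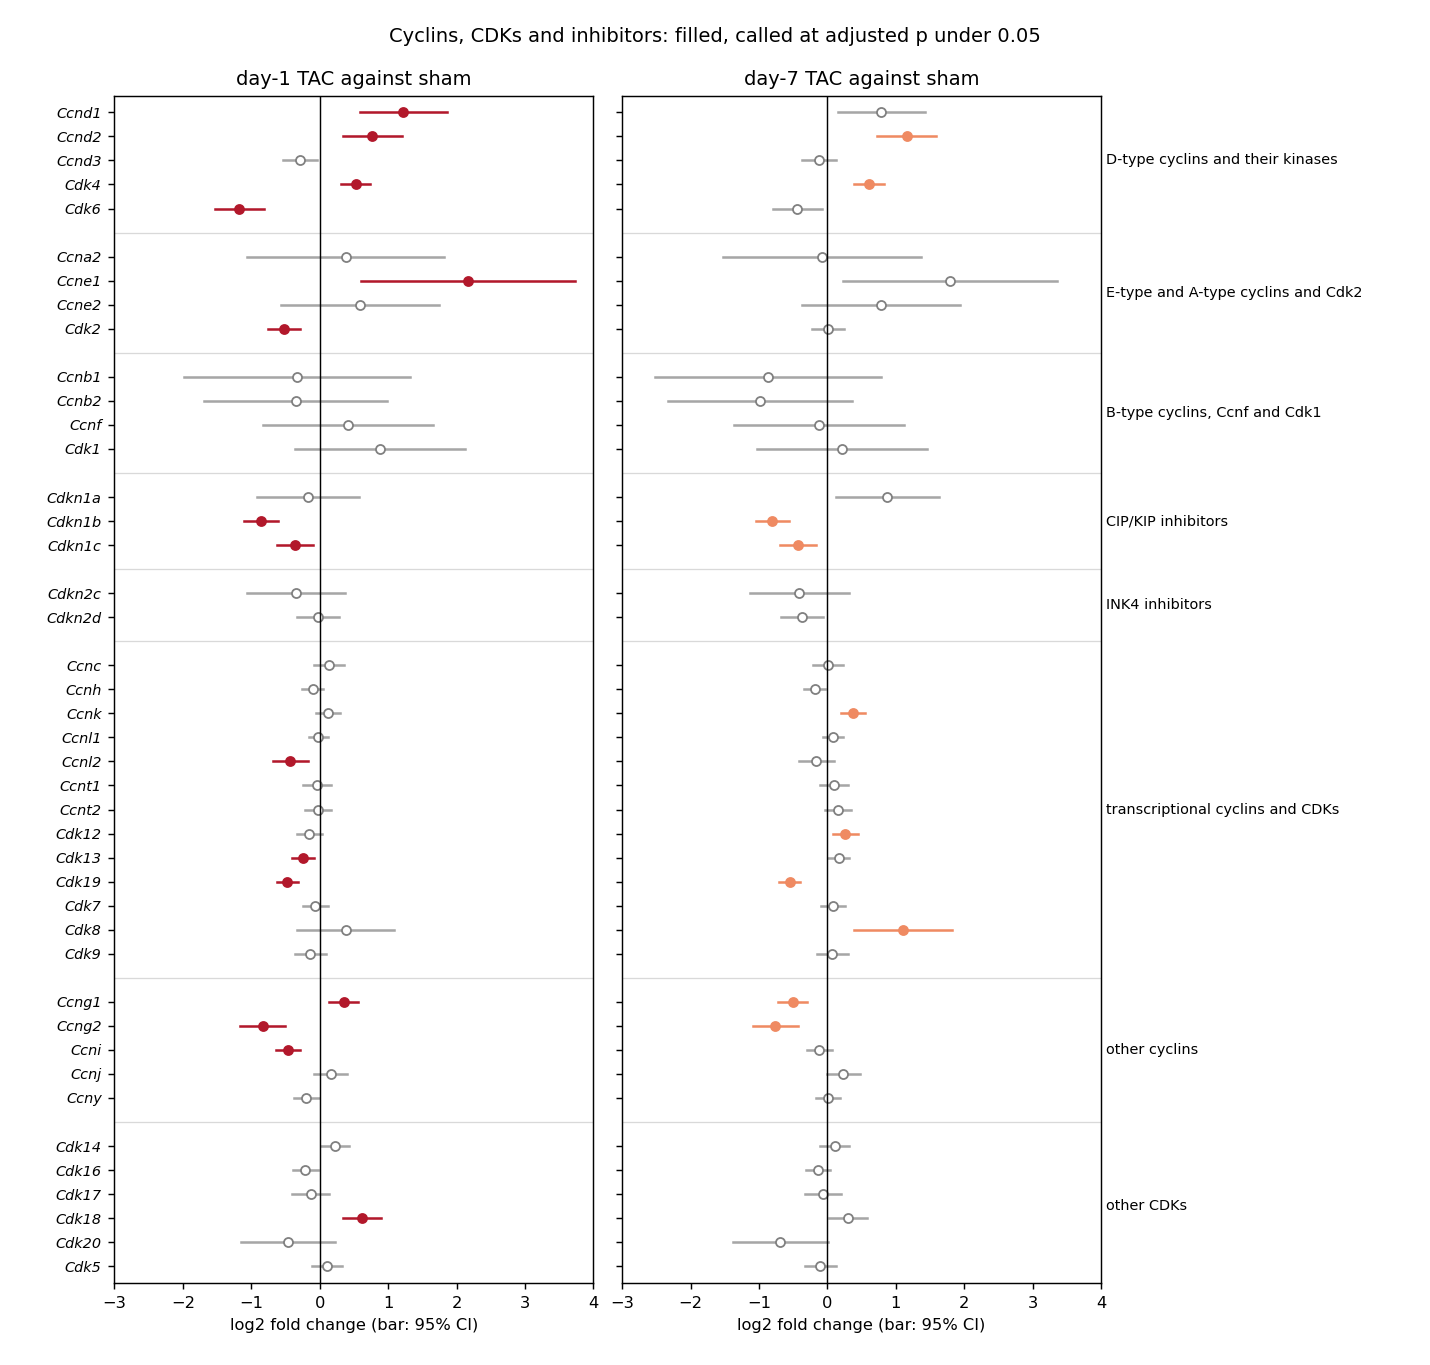
Log2 fold change (x axis) of the 42 members that passed the filter, in rows by role, for day-1 TAC against sham on the left and day-7 TAC against sham on the right. Points are the fitted differences of group means with their 95% confidence intervals, and filled points were called: 15 on the left and 10 on the right. Both panels share the sham libraries.

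The D-type cyclins and their kinases, which act in G1, split within the family. Ccnd2 and Cdk4 rose in both TAC groups, Ccnd1 rose with day-1 TAC, and Cdk6 fell with day-1 TAC. Of these 5 genes, 3 rose and 1 fell with day-1 TAC, and 2 rose and 0 fell with day-7 TAC. Called shares were 80% and 40%, beside 34.8% and 28.9% of all tested genes. Ccnd3 was not called in any comparison.

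Ccnd1 encodes cyclin D1, the D-type cyclin best known as an early target of growth factor signals (GRCm38 chromosome 7 from 144929931 to 144939925). Its log2 values were 6.96, 6.30 and 6.10 with day-1 TAC, 5.67, 6.50 and 5.88 with day-7 TAC, and 4.74, 5.21 and 5.73 in sham. All 3 day-1 TAC libraries lay above all sham libraries, while the lowest day-7 TAC library lay just below the highest sham library. The log2 fold change was 1.22 with day-1 TAC (SE 0.29, 2.34-fold, adjusted p = 0.00902), and it was called in all 9 fits that leave out a library. With day-7 TAC it was 0.79 (SE 0.29, adjusted p = 0.0639), and the TAC groups did not differ past the threshold (0.44, adjusted p = 0.324). The day-7 TAC value passed the threshold without sham replicate 3 (1.04, adjusted p = 0.0262) or without day-1 TAC replicate 1 (0.79, adjusted p = 0.0385). Of the exon length of Ccnd1, 23.4% overlaps the opposite-strand gene LTO1, listed as Oraov1 in the table. Oraov1 itself rose by 0.34 with day-1 TAC (adjusted p = 0.0107). Whether the counting used strand is not given in the sources used here, so reads of the overlap cannot be told apart.

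Ccnd2 encodes cyclin D2 (chromosome 6 from 127125162 to 127152193). It stood at 7.89, 7.44 and 7.17 with day-1 TAC, at 7.77, 8.13 and 7.78 with day-7 TAC, and at 6.37, 6.87 and 6.96 in sham. Neither TAC group overlapped sham, and the day-7 TAC libraries were the tighter set. It rose by 0.77 with day-1 TAC (SE 0.20, 1.70-fold, adjusted p = 0.0128) and by 1.16 with day-7 TAC (SE 0.20, 2.23-fold, adjusted p = 0.00217). Between the TAC groups it differed by -0.39 (adjusted p = 0.192).

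Cdk4 encodes a kinase partner of the D-type cyclins and made up most of the per-kilobase sum of Cdk4 and Cdk6 in every library (chromosome 10 from 127063534 to 127067920). It had 5.66, 5.41 and 5.45 with day-1 TAC, 5.49, 5.76 and 5.53 with day-7 TAC, and 5.05, 4.97 and 4.94 in sham. Every TAC library was above every sham library. The rise was 0.52 with day-1 TAC (SE 0.10, 1.44-fold, adjusted p = 0.00261) and 0.61 with day-7 TAC (SE 0.10, 1.53-fold, adjusted p = 0.00158). The opposite-strand gene Tspan31 overlaps 19.7% of the Cdk4 exon length. Tspan31 rose by 0.32 with day-1 TAC (adjusted p = 0.0184) and stood at 0.09 with day-7 TAC. Whether reads of the overlap had a part in the values of Cdk4 was not tested.

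Cdk6, the other kinase of D-type cyclins, went the opposite way. It was at 3.20, 3.25 and 3.15 with day-1 TAC, 3.98, 3.92 and 3.90 with day-7 TAC, and 3.93, 4.57 and 4.61 in sham. The 3 day-1 TAC libraries formed a tight set below all other libraries, and sham replicate 1 lay among the day-7 TAC libraries. Cdk6 fell by 1.17 with day-1 TAC against sham (SE 0.16, adjusted p = 0.000649) and was 0.73 lower than with day-7 TAC, a log2 fold change of -0.73 (SE 0.16, adjusted p = 0.0138). Against sham, day-7 TAC stood at -0.44 (adjusted p = 0.0645), and at -0.66 (adjusted p = 0.00243) without sham replicate 1.

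Ccnd3, which encodes cyclin D3, had 5.86, 5.82 and 6.20 with day-1 TAC, 6.10, 6.19 and 6.08 with day-7 TAC, and 6.40, 6.29 and 6.05 in sham. Its log2 fold change was -0.29 with day-1 TAC (adjusted p = 0.0733) and -0.12 with day-7 TAC (adjusted p = 0.443). The day-1 TAC value passed the threshold without day-1 TAC replicate 3 (-0.41, adjusted p = 0.0168) or without sham replicate 3 (-0.38, adjusted p = 0.0299).

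Values were also put on a linear scale per kilobase of exon, with all annotated exons of a gene joined. Which transcripts were expressed was not taken into account, so shares of different genes depend on the annotation. On this scale the make-up of the D-type cyclins differed between the groups. Their summed level was 46.1 ± 10.8 with day-1 TAC, 47.5 ± 8.43 with day-7 TAC and 28.5 ± 4.06 in sham (SD, n = 3 each). Ccnd3 was 16.2% ± 5.29 of that sum with day-1 TAC, 17.0% ± 2.19 with day-7 TAC and 31.3% ± 8.15 in sham. Ccnd2 was 42.6% ± 2.26 with day-1 TAC, 53.6% ± 1.72 with day-7 TAC and 40.1% ± 3.18 in sham, and Ccnd1 was 41.2% ± 3.71, 29.4% ± 3.85 and 28.6% ± 5.88 in the same groups. The share of Ccnd2 with day-7 TAC, 52.0% to 55.4%, did not overlap the other groups. Cdk6 was 4.49% ± 0.447 of the sum of Cdk4 and Cdk6 with day-1 TAC, 6.86% ± 0.735 with day-7 TAC and 13.4% ± 3.28 in sham, and no group overlapped another. In bulk RNA, fewer cells of a type and less RNA per cell cannot be told apart. These shares are descriptions and carry no test of their own.

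**Figure D2:**
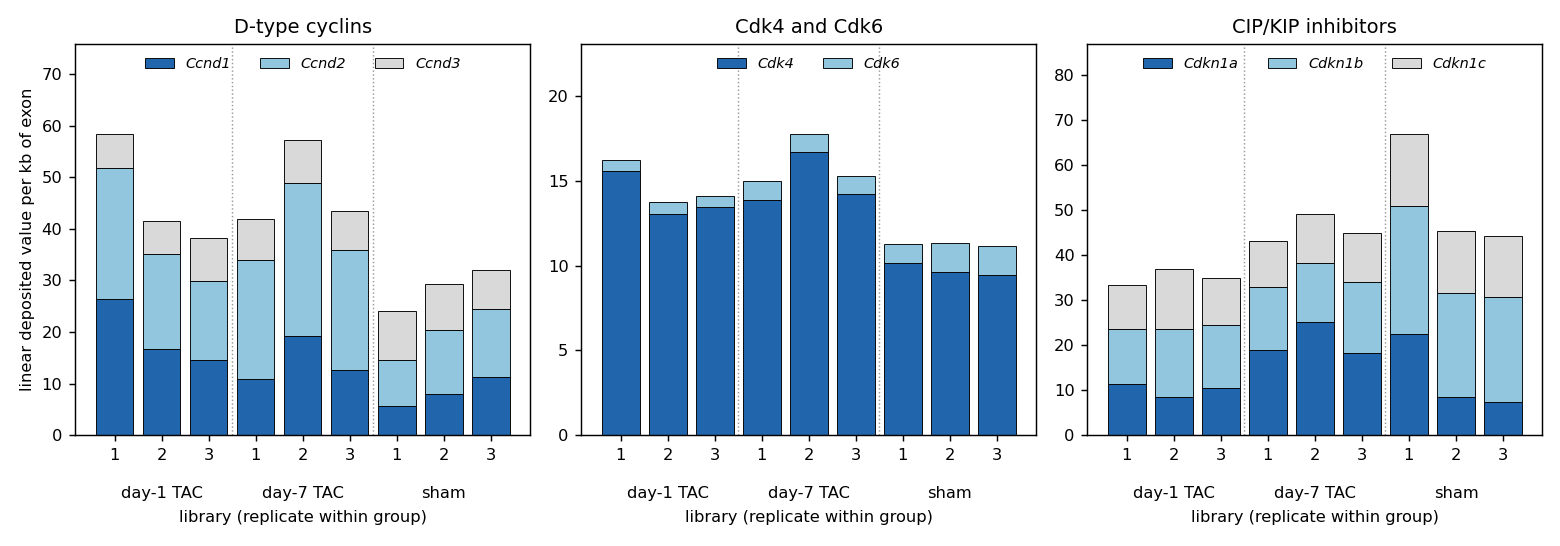
Stacked linear deposited values per kilobase of exon (y axis) for the D-type cyclins, for Cdk4 with Cdk6 and for the CIP/KIP inhibitors, 1 bar per library, in the order day-1 TAC, day-7 TAC and sham. The sum of D-type cyclins averaged 46.1 with day-1 TAC, 47.5 with day-7 TAC and 28.5 in sham, and the Cdk6 part of the middle panel was smallest with day-1 TAC.

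Markers of other cells were counted in the same way, against the 34.8% of all tested genes called with day-1 TAC and the 28.9% called with day-7 TAC. Shares near these are not particular to a list. Of 12 fibroblast markers, 5 rose and 1 fell with day-1 TAC, and 1 rose and 0 fell with day-7 TAC, and the linear values summed to 5991 to 7960 in day-1 TAC libraries, 5522 to 6159 in day-7 TAC libraries and 4353 to 5751 in sham libraries. Of 12 macrophage markers, 4 rose and 0 fell with day-1 TAC, and 0 rose and 2 fell with day-7 TAC, with summed levels of 187.9 to 268.2, 136.8 to 183.0 and 158.2 to 211.4 in day-1 TAC, day-7 TAC and sham. Endothelial markers went the other way, with 0 risen and 5 fallen of 12 with day-1 TAC, 1 risen and 3 fallen with day-7 TAC, and summed levels of 1841 to 2034, 2010 to 2095 and 2081 to 2193 in the same groups. Among 12 ventricular cardiomyocyte markers 1 rose and 4 fell with day-1 TAC, 1 rose and 3 fell with day-7 TAC, and the sums were 106980 to 137620, 125680 to 135280 and 145860 to 150770. Mural cell markers rose in 2 and fell in 3 of 10 with day-1 TAC, and rose in 2 and fell in 0 with day-7 TAC. Neutrophil and lymphocyte markers rose in 5 of 7 with day-1 TAC and in 6 of 7 with day-7 TAC, at summed levels of 8.5 to 31.7, 32.0 to 69.7 and 2.8 to 5.6. These 7 were the ones past the filter of 11 in the table, whose mean log2 value was -2.34 to -1.38 in sham. Markers could thus pass the filter through TAC libraries in which they were high, so their counts cannot be read apart from the filter. Atrial markers rose in 2 of 8 in either TAC group, 1 skeletal muscle marker rose and 1 fell of 4 with day-1 TAC and 2 rose and 1 fell with day-7 TAC, and 0 of 4 erythroid markers were called by limma. The macrophage count with day-1 TAC was 1 without sham replicate 1 or day-1 TAC replicate 1 or 3 and 2 without sham replicate 2, and the endothelial count was 3 without sham replicate 1. The part of these cells in the differences of cyclins and CDKs was not tested.

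Cdk2 and the E-type and A-type cyclins act at the start of DNA synthesis. Called shares of these 4 genes were 50% with day-1 TAC and 0% with day-7 TAC, beside 34.8% and 28.9% of all tested genes. In this group Ccne1 rose and Cdk2 fell with day-1 TAC, and 0 of the 4 tested members were called with day-7 TAC by limma (1 had an unadjusted p under 0.05), at an adjusted p of 0.0809 for Ccne1 and 0.286 or more for the other 3. Cdk2 had 4.26, 4.09 and 4.19 with day-1 TAC, 4.47, 4.80 and 4.85 with day-7 TAC, and 4.73, 4.70 and 4.68 in sham (chromosome 10 from 128697939 to 128705031). Every day-1 TAC library was below every other library. It fell by 0.52 with day-1 TAC against sham (SE 0.11, adjusted p = 0.00441), was lower than with day-7 TAC by a log2 fold change of -0.53 (SE 0.11, adjusted p = 0.0097), and stood at 0.01 with day-7 TAC against sham (95% confidence interval -0.23 to 0.24).

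Ccne1 encodes cyclin E1 and was a low-count gene, with 114, 40 and 37 recovered reads with day-1 TAC, 16, 78 and 73 with day-7 TAC, and 14, 8 and 20 in sham. Its log2 values were 2.44, 0.98 and 0.94 with day-1 TAC, -0.58, 2.02 and 1.79 with day-7 TAC, and -0.52, -1.68 and 0.06 in sham. Only day-7 TAC replicate 1 of the TAC libraries lay within the sham range. In sham only replicate 3 lay above 0, so Ccne1 passed the filter through the TAC libraries in which it was high. The log2 fold change was 2.16 with day-1 TAC (SE 0.70, adjusted p = 0.0364) and 1.79 with day-7 TAC (SE 0.70, adjusted p = 0.0809). The day-1 TAC call was lost without day-1 TAC replicate 1 (1.67, adjusted p = 0.1245). It was likewise lost without sham replicate 1 or 2 (2.26 and 1.68, adjusted p = 0.0692 and 0.129). Without day-7 TAC replicate 1, the day-7 TAC value was 2.62 and passed the threshold (adjusted p = 0.0117). The day-1 TAC call was also lost with a robust prior (adjusted p = 0.0557) and with no intensity trend (adjusted p = 0.0604).

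The members that mark S phase, G2 and mitosis were spread widely within the groups. None of Ccna2, Ccne2, Ccnb1, Ccnb2, Ccnf and Cdk1 was called by limma in any comparison, and 0 of the 6 had an unadjusted p under 0.05. Ccna2, which encodes cyclin A2, stood at 4.83, 2.99 and 2.52 with day-1 TAC, at 1.81, 4.12 and 3.05 with day-7 TAC, and at 3.33, 2.32 and 3.56 in sham. Day-1 TAC replicate 1 was highest and day-7 TAC replicate 1 lowest of the 9 libraries, and the group means differed by 0.38 with day-1 TAC (SE 0.65, adjusted p = 0.684) and -0.08 with day-7 TAC (SE 0.65, adjusted p = 0.943). Cdk1 had 4.13, 2.49 and 2.14 with day-1 TAC, 1.39, 3.16 and 2.20 with day-7 TAC, and 2.40, 1.25 and 2.46 in sham, with a log2 fold change of 0.88 (SE 0.56, adjusted p = 0.25) with day-1 TAC and 0.21 (SE 0.56, adjusted p = 0.806) with day-7 TAC. Ccnb1 was barely above the filter, with 74, 18 and 9 reads with day-1 TAC, 8, 29 and 20 with day-7 TAC, and 37, 21 and 37 in sham. Its log2 fold change was -0.33 (SE 0.74, adjusted p = 0.758) with day-1 TAC and -0.87 (SE 0.74, adjusted p = 0.41) with day-7 TAC.

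The same libraries were at the extremes for these genes. For all 7 of Ccna2, Ccnb1, Ccnb2, Ccnf, Cdk1, Ccne1 and Ccne2, a set put together after their values were seen, day-1 TAC replicate 1 was the highest of the 9 libraries. Day-1 TAC replicate 3 was the lowest of its group for all 7, day-7 TAC replicate 1 the lowest and replicate 2 the highest of theirs, and sham replicate 2 the lowest of the sham libraries. Mki67, a proliferation marker outside the family, had the same highest and lowest library in each TAC group, at 7.12, 5.36 and 4.70 with day-1 TAC, 3.34, 6.07 and 4.93 with day-7 TAC, and 5.70, 4.50 and 6.04 in sham. The mean log2 value of 30 mitosis and cytokinesis genes was 4.13, 2.56 and 2.11 with day-1 TAC, 1.46, 3.22 and 2.49 with day-7 TAC, and 2.97, 2.01 and 3.10 in sham. That list therefore spanned 2.11 to 4.13 within day-1 TAC and 1.46 to 3.22 within day-7 TAC. Day-7 TAC replicate 1 also stood apart in atrial markers, with Myl4 at 7.57 against 5.87 and 5.90 in the other libraries of its group, and Sln at 4.18 against 1.52 and 2.08. The part of tissue sampling in the order of the libraries was not tested.

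**Figure D3:**
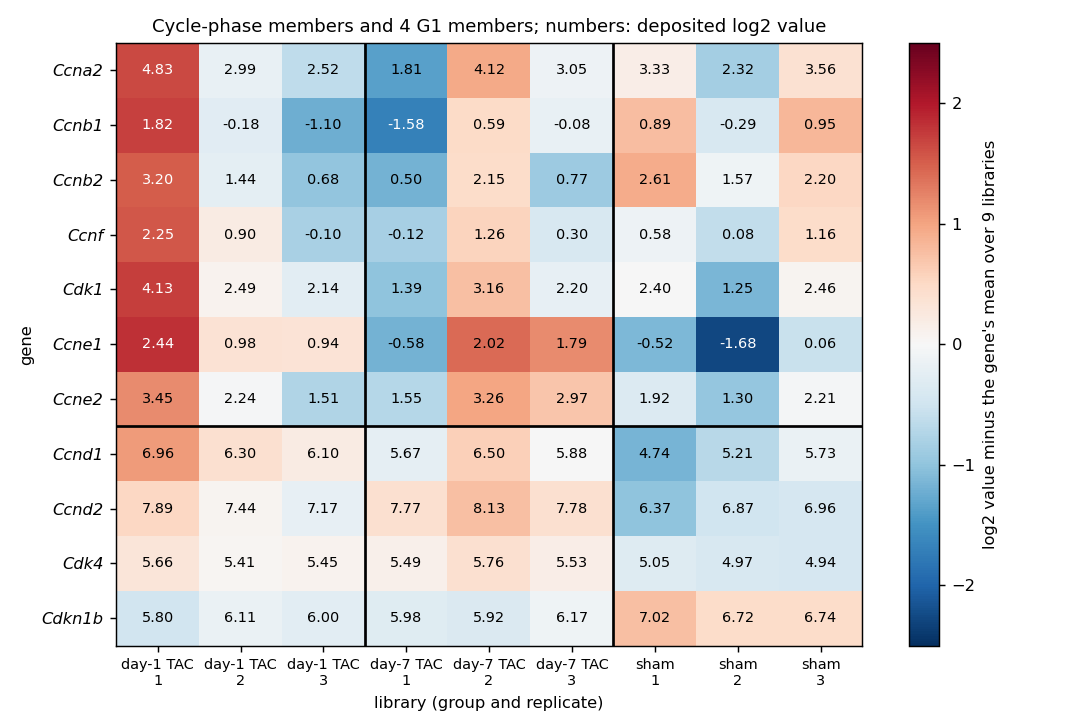
Heat map of the 7 members that mark S phase, G2 or mitosis (upper rows) and of Ccnd1, Ccnd2, Cdk4 and Cdkn1b (lower rows) in the 9 libraries (columns). Colours give the log2 value minus the gene's mean over the 9 libraries, and the printed numbers are the deposited log2 values. Day-1 TAC replicate 1 is the highest library in all 7 upper rows, while in the lower rows no TAC library overlaps sham for Ccnd2, Cdk4 and Cdkn1b, and day-7 TAC replicate 1 overlaps it for Ccnd1.

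Of the CIP/KIP inhibitors, Cdkn1b and Cdkn1c fell in both TAC groups and Cdkn1a was not called. Cdkn1b encodes p27, an inhibitor of Cdk2 complexes that holds cells out of the cycle. It had 5.80, 6.11 and 6.003 with day-1 TAC, 5.98, 5.92 and 6.17 with day-7 TAC, and 7.02, 6.72 and 6.74 in sham. Every TAC library was below every sham library, and the TAC groups overlapped each other. The fall was 0.86 with day-1 TAC, a log2 fold change of -0.86 (SE 0.11, adjusted p = 0.000478), and 0.81 with day-7 TAC, a log2 fold change of -0.81 (SE 0.11, adjusted p = 0.000743). It was called in all 9 fits that leave out a library in both comparisons. The mean per kilobase of exon was 13.8 with day-1 TAC and 14.3 with day-7 TAC against 25.0 in sham.

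Cdkn1c, an imprinted gene that encodes p57, was at 4.33, 4.76 and 4.42 with day-1 TAC, 4.39, 4.46 and 4.48 with day-7 TAC, and 5.03, 4.80 and 4.78 in sham. Neither TAC group overlapped sham, but the highest day-1 TAC library was close to the lowest sham library. The log2 fold changes were -0.37 (SE 0.12, adjusted p = 0.0351) and -0.43 (SE 0.12, adjusted p = 0.0221) with day-1 and day-7 TAC. With day-1 TAC the call was lost when values were rescaled to the same sum (-0.27, adjusted p = 0.0881) or by a trimmed mean (-0.33, adjusted p = 0.0508), with no intensity trend (adjusted p = 0.0519), with only the groups compared in the fit (adjusted p = 0.068), and without sham replicate 1 or 2, day-1 TAC replicate 1 or 3, or day-7 TAC replicate 3 (-0.40 to -0.28, adjusted p of 0.0503 to 0.1147). With day-7 TAC it was lost without sham replicate 1 or day-7 TAC replicate 1 or 2 (-0.43 to -0.35, adjusted p of 0.0577 to 0.0749). An antisense gene, Gm44732, shares 30.7% of the Cdkn1c exon length.

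Cdkn1a encodes p21, the inhibitor best known as a target of p53. It had 5.32, 4.91 and 5.20 with day-1 TAC, 6.08, 6.48 and 6.01 with day-7 TAC, and 6.31, 4.92 and 4.71 in sham. A single sham library, replicate 1, stood as high as the day-7 TAC libraries. The log2 fold change was -0.17 (SE 0.34, adjusted p = 0.732) with day-1 TAC and 0.88 (SE 0.34, adjusted p = 0.076) with day-7 TAC. Without sham replicate 1 it was 1.38 with day-7 TAC and passed the threshold (adjusted p = 0.00109). Between the TAC groups, which did not overlap, day-1 TAC was lower (-1.04, SE 0.34, adjusted p = 0.059), and this value passed the threshold when the sham libraries were left out of the fit (adjusted p = 0.00539), and without sham replicate 1 or 3 alone (adjusted p = 0.00314 and 0.0424). Of the sum of the 3 CIP/KIP genes per kilobase, Cdkn1a was 28.8% ± 5.42 with day-1 TAC, 45.2% ± 5.40 with day-7 TAC and 23.0% ± 9.15 in sham, while Cdkn1b was 39.3% ± 2.34, 31.4% ± 4.14 and 48.9% ± 5.47 in the same groups.

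Of 19 p53 target genes tested, other than Cdkn1a and Ccng1, 6 rose and 5 fell with day-1 TAC, and 6 rose and 2 fell with day-7 TAC. Called shares were 57.9% and 42.1%, beside 34.8% and 28.9% of all tested genes. Without day-7 TAC replicate 2, 4 rose and 0 fell with day-7 TAC. Gdf15, which encodes a stress cytokine, rose by 3.55 (SE 0.55, adjusted p = 0.00113) with day-1 TAC and by 3.13 (SE 0.55, adjusted p = 0.00261) with day-7 TAC. The nuclease gene Aen rose by 0.85 and 0.86 in the same comparisons, and the membrane protein gene Perp fell by 0.45 with day-1 TAC (adjusted p = 0.00283) and stood at 0.14 with day-7 TAC. The median log2 fold change of the list was 0.27 with day-1 TAC and 0.24 with day-7 TAC.

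INK4 inhibitors were low or not called. Cdkn2c, which encodes p18, had 4.03, 3.09 and 2.72 with day-1 TAC, 2.60, 3.62 and 3.44 with day-7 TAC, and 3.75, 3.49 and 3.64 in sham, and its log2 fold change was -0.35 (SE 0.33, adjusted p = 0.438) and -0.41 (SE 0.33, adjusted p = 0.377) with day-1 and day-7 TAC. Within the TAC groups its libraries stood in the same order as those of Ccna2. Cdkn2d, which encodes p19, stood at -0.03 with day-1 TAC and -0.37 with day-7 TAC (adjusted p = 0.906 and 0.0687). Cdkn2a, whose transcripts encode p16 and ARF, and Cdkn2b, which encodes p15, did not pass the filter. Cdkn2a had 14, 3 and 8 reads with day-1 TAC, 3, 3 and 4 with day-7 TAC, and 5, 2 and 4 in sham. Cdkn2b had 32, 12 and 19 reads with day-1 TAC, 8, 8 and 10 with day-7 TAC, and 5, 12 and 4 in sham. In a fit with no filter, Cdkn2b was called with day-1 TAC at these low counts (1.73, adjusted p = 0.013) and not with day-7 TAC (0.48, adjusted p = 0.461), and Cdkn2a was called in neither (1.11 and -0.04, adjusted p = 0.207 and 0.971).

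Upstream and downstream of the G1 kinases lie the pocket proteins and E2F factors, of which 18 were tested. With day-1 TAC 5 rose and 3 fell, and with day-7 TAC 4 rose and 2 fell. Called shares were 44.4% and 33.3%, beside 34.8% and 28.9% of all tested genes. The day-1 TAC total of 8 was 5 without sham replicate 1 or 2 or day-1 TAC replicate 1 or 3, and the day-7 TAC total of 6 was 3 without sham replicate 2 or day-7 TAC replicate 2 or 3. E2f3, an activating E2F gene, rose by 0.83 (SE 0.14, adjusted p = 0.00184) with day-1 TAC and by 1.10 (SE 0.14, adjusted p = 0.000582) with day-7 TAC. The pocket protein gene Rbl2, which encodes p130, fell by 0.84 (SE 0.11, adjusted p = 0.00049) and 0.72 (SE 0.11, adjusted p = 0.00131), and Tfdp2, an E2F partner, fell by 1.35 (SE 0.16, adjusted p = 0.000291) and 0.99 (SE 0.16, adjusted p = 0.0016) in the same comparisons. Regulators of CDK activity and turnover rose in 1 and fell in 4 of 15 with day-1 TAC, and rose in 2 and fell in 2 with day-7 TAC. These totals were 33.3% and 26.7% of the list, near the shares of all tested genes. Rescaled to the same sum, the count for day-1 TAC was 3 risen and 2 fallen. That list had 0 risen and 3 fallen with day-1 TAC without sham replicate 1 or day-1 TAC replicate 1, and 0 risen and 2 fallen with day-7 TAC when replicate 2 of any of the 3 groups was left out. Fbxo31, an F-box gene whose product targets cyclin D1, fell by 1.14 (SE 0.18, adjusted p = 0.00116) with day-1 TAC and by 1.27 (SE 0.18, adjusted p = 0.000886) with day-7 TAC. Fbxw7, whose product targets cyclin E, fell by 0.81 (SE 0.12, adjusted p = 0.000869) and 0.53 (SE 0.12, adjusted p = 0.00845). The ligase subunit gene Cul1 fell by 0.28 with day-1 TAC (adjusted p = 0.00919), a call lost on rescaling (adjusted p = 0.0527) and with quantile normalization (adjusted p = 0.054), and stood at 0.02 with day-7 TAC.

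Of 33 DNA replication genes tested, 8 rose and 0 fell with day-1 TAC, and 7 rose and 0 fell with day-7 TAC. Called shares were 24.2% and 21.2%, below the 34.8% and 28.9% of all tested genes. Median log2 fold changes of the list were 0.64 and 0.65 against -0.04 and -0.01 over all tested genes. The count with day-1 TAC was 2 without day-1 TAC replicate 1, sham replicate 1 or sham replicate 2, and that with day-7 TAC was 16 without day-7 TAC replicate 1, 13 without day-1 TAC replicate 1, and 4 without sham replicate 2 or day-7 TAC replicate 2. The helicase genes Mcm2, Mcm3 and Mcm5 led the list: Mcm2 rose by 1.57 (SE 0.31) and 2.45 (SE 0.31), Mcm3 by 1.52 (SE 0.36) and 1.84 (SE 0.36), and Mcm5 by 1.65 (SE 0.45) and 2.09 (SE 0.45) with day-1 and day-7 TAC. Of 30 mitosis and cytokinesis genes, 2 rose and 1 fell in either TAC group against sham, which is 10% in each comparison and below the same shares. Cenpa rose by 0.73 (SE 0.13) and 1.03 (SE 0.13), Bub3 by 0.35 and 0.31, and Cenpf fell by 3.12 (SE 0.53) and 2.65 (SE 0.53). The median of that list was 0.31 with day-1 TAC and -0.24 with day-7 TAC, and with day-1 TAC it was -0.34 without day-1 TAC replicate 1 and -0.04 without sham replicate 2, while with day-7 TAC it was 0.28 without day-7 TAC replicate 1.

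Ccng1 was the member with the highest level per kilobase of exon in all 3 groups, and the 1 member called in opposite directions in the TAC groups. That level was 206 ± 8.04 with day-1 TAC, 114 ± 4.19 with day-7 TAC and 163 ± 22.7 in sham (SD, n = 3 each). Ccng1 encodes cyclin G1, a p53 target that recruits a phosphatase to Mdm2 (chromosome 11 from 40748552 to 40755311). Its log2 values were 9.56, 9.47 and 9.46 with day-1 TAC, 8.59, 8.69 and 8.65 with day-7 TAC, and 8.99, 9.10 and 9.37 in sham. The 3 groups did not overlap, with sham between the TAC groups. It rose by 0.35 with day-1 TAC (SE 0.09, adjusted p = 0.0174) and fell by 0.51 with day-7 TAC, a log2 fold change of -0.51 (SE 0.09, adjusted p = 0.00364). The TAC groups differed by 0.86 (SE 0.09, 1.81-fold, adjusted p = 0.000785), a call kept in all 9 fits that leave out a library. The rise with day-1 TAC lost its call without day-1 TAC replicate 1 (0.32, adjusted p = 0.0512), and also without sham replicate 1 or 2 (0.27 and 0.32, adjusted p = 0.0558 and 0.0633). Macrophage markers were higher in 6 of 12 and lower in 0 with day-1 TAC than with day-7 TAC. That is 50%, beside 16.7% of all tested genes called in this comparison, 6.42% higher and 10.3% lower. Neutrophil and lymphocyte markers were higher in 0 and lower in 2 of 7. The part of these cells in the difference of Ccng1 was not tested.

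Ccng2 encodes cyclin G2, which is associated with arrest of the cycle. It had 4.56, 4.96 and 4.85 with day-1 TAC, 4.78, 4.83 and 4.98 with day-7 TAC, and 5.97, 5.41 and 5.48 in sham. All TAC libraries were below all sham libraries. It fell by 0.84 with day-1 TAC (SE 0.15, adjusted p = 0.0024) and by 0.76 with day-7 TAC (SE 0.15, adjusted p = 0.00481). Ccni, which encodes cyclin I, had 7.28, 7.38 and 7.40 with day-1 TAC, 7.78, 7.61 and 7.74 with day-7 TAC, and 7.89, 7.90 and 7.68 in sham. The day-1 TAC libraries were the lowest 3. Ccni fell by 0.47 with day-1 TAC (SE 0.08, adjusted p = 0.00186), stood at -0.12 with day-7 TAC (adjusted p = 0.298), and differed by -0.35 between day-1 and day-7 TAC (SE 0.08, adjusted p = 0.0161). The last call was lost without day-7 TAC replicate 1 (-0.32, adjusted p = 0.0616) or replicate 3 (-0.34, adjusted p = 0.057). Ccnj was not called. Ccny stood at -0.19 with day-1 TAC (adjusted p = 0.0852), and was called without day-1 TAC replicate 1 both against sham (-0.27, adjusted p = 0.0232) and against day-7 TAC (-0.28, adjusted p = 0.0358), and Ccno, with 1 to 7 reads per library, did not pass the filter and was not called in the fit with no filter (1.48 and 1.58 with day-1 and day-7 TAC, adjusted p = 0.0674 and 0.0611).

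Of the 13 cyclins and CDKs that act mainly in transcription, 0 rose and 3 fell with day-1 TAC, and 3 rose and 1 fell with day-7 TAC. That was 23.1% and 30.8% of the 13, near the 34.8% and 28.9% of all tested genes called in these comparisons. Without sham replicate 2 these counts were 0 risen and 1 fallen with day-1 TAC and 1 risen and 1 fallen with day-7 TAC, and the day-7 TAC count was 1 and 1 as well without day-7 TAC replicate 2 or 3. Ccnh with Cdk7 forms the CDK-activating kinase of TFIIH, Ccnt1 or Ccnt2 with Cdk9 forms the elongation factor P-TEFb, Ccnc with Cdk8 or Cdk19 forms the kinase module of Mediator, and Ccnk with Cdk12 or Cdk13 phosphorylates the polymerase tail during elongation. Neither Ccnh, Cdk7, Ccnt1, Ccnt2 nor Cdk9 was called in any comparison. Cdk9 had 4.16, 4.42 and 4.19 with day-1 TAC, 4.41, 4.51 and 4.47 with day-7 TAC, and 4.50, 4.45 and 4.23 in sham, with log2 fold changes of -0.14 (95% confidence interval -0.36 to 0.09) and 0.07 (-0.16 to 0.30).

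Of the elongation kinases and their cyclin, Cdk12 and Cdk13 were lower in the day-1 TAC group than in the day-7 TAC group, and Ccnk and Cdk12 rose with day-7 TAC against sham. Cdk12 had 5.63, 5.69 and 5.51 with day-1 TAC, 6.06, 6.02 and 5.99 with day-7 TAC, and 5.62, 5.78 and 5.88 in sham, and Cdk13 had 6.17, 6.25 and 6.16 with day-1 TAC, 6.73, 6.50 and 6.59 with day-7 TAC, and 6.42, 6.47 and 6.44 in sham. For both genes every day-7 TAC library was above every sham and every day-1 TAC library. With day-1 against day-7 TAC the log2 fold change was -0.41 for Cdk12 (SE 0.08, adjusted p = 0.00957) and -0.41 for Cdk13 (SE 0.07, adjusted p = 0.00552), and both calls held in all 9 fits that leave out a library. Against sham, Cdk12 rose by 0.26 with day-7 TAC (SE 0.08, adjusted p = 0.0388), a call lost without sham replicate 1 or 2 or any 1 day-7 TAC library (0.19 to 0.28, adjusted p of 0.0720 to 0.1131). Cdk13 fell by 0.25 with day-1 TAC (SE 0.07, adjusted p = 0.0219), a call lost on rescaling to the same sum (-0.15, adjusted p = 0.131), with quantile normalization (-0.15, adjusted p = 0.125), and without sham replicate 2 or day-1 TAC replicate 1 or 3 (-0.24 to -0.23, adjusted p of 0.0542 to 0.0706). Against sham with day-7 TAC, Cdk13 stood at 0.16 (adjusted p = 0.11), and at 0.22 with a call on rescaling to the same sum (adjusted p = 0.0392). Ccnk had 6.10, 5.96 and 5.88 with day-1 TAC, 6.32, 6.19 and 6.20 with day-7 TAC, and 5.78, 5.94 and 5.88 in sham. It rose by 0.37 with day-7 TAC (SE 0.08, adjusted p = 0.00685) and differed by -0.26 between day-1 and day-7 TAC (adjusted p = 0.0514), which passed the threshold without day-1 TAC replicate 1 (-0.32, adjusted p = 0.0321) and likewise without sham replicate 1 (-0.26, adjusted p = 0.0459). Ccnl2, a cyclin of splicing-linked CDKs, fell by 0.43 with day-1 TAC (SE 0.12, adjusted p = 0.0175), which was lost without sham replicate 2 (-0.37, adjusted p = 0.0678) and with quantile normalization (-0.32, adjusted p = 0.0657).

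The paralogous Mediator kinases differed from each other. Cdk19 had 5.07, 5.11 and 5.13 with day-1 TAC, 4.95, 5.05 and 5.09 with day-7 TAC, and 5.55, 5.55 and 5.63 in sham (chromosome 10 from 40339564 to 40483818). The TAC and sham libraries did not overlap, and the libraries of each group lay close together. It fell by 0.47 with day-1 TAC (SE 0.07, adjusted p = 0.000925) and by 0.55 with day-7 TAC (SE 0.07, adjusted p = 0.000554). Cdk8 had 6.97, 7.49 and 7.23 with day-1 TAC, 7.01, 8.34 and 8.51 with day-7 TAC, and 7.07, 6.83 and 6.65 in sham. Its rise of 1.10 with day-7 TAC (SE 0.32, adjusted p = 0.0268) came from replicates 2 and 3, since replicate 1 lay within the sham range. The call was lost without either of these libraries (0.91 and 0.83, adjusted p = 0.1008 and 0.0976) and without sham replicate 2 or 3 (1.09 and 1.00, adjusted p = 0.0705 and 0.0726), as it was with a robust prior (adjusted p = 0.0623) and with no intensity trend (adjusted p = 0.0549). Between day-1 and day-7 TAC, Cdk8 stood at -0.72 and was not called. Without day-7 TAC replicate 1 this value was called (-1.20, adjusted p = 0.00462), and without both replicates 2 and 3 it was 0.22. The genes Camk1d, Cmss1 and Lars2, picked after their values were seen, were also highest in day-7 TAC replicates 2 and 3. So was Gm42418, which RefSeq lists as Rn18s-rs5, a pseudogene named for 18S ribosomal RNA, at 11.07, 10.97 and 10.20 with day-1 TAC, 10.06, 12 and 12.07 with day-7 TAC, and 10.91, 10.33 and 10.22 in sham. Whether ribosomal RNA had a part in the value of Cdk8 was not tested.

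**Figure D4:**
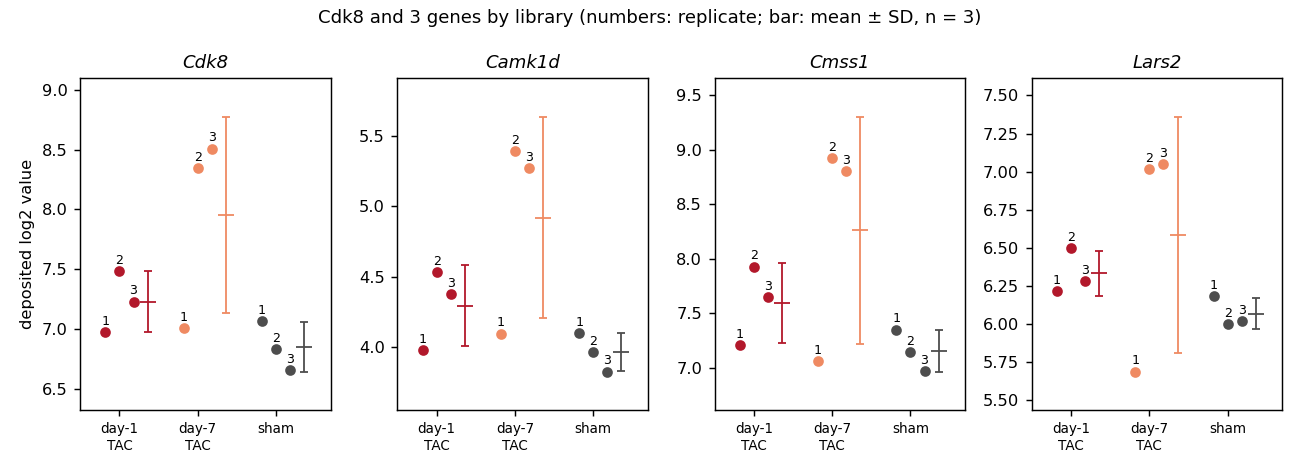
Deposited log2 values (y axis) of Cdk8 and of Camk1d, Cmss1 and Lars2 in the 9 libraries, in the order day-1 TAC, day-7 TAC and sham; points are libraries numbered by replicate, and bars the mean ± SD (n = 3). In each panel day-7 TAC replicates 2 and 3 are the highest libraries and replicate 1 lies far below them.

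Partners of the transcriptional CDKs, such as subunits of TFIIH, Mediator and the super elongation complex, rose in 0 and fell in 7 of 19 with day-1 TAC. They rose in 2 and fell in 1 with day-7 TAC, and were higher in 0 and lower in 5 when day-1 TAC was set against day-7 TAC. Called shares were 36.8%, 15.8% and 26.3%, beside 34.8%, 28.9% and 16.7% of all tested genes. Rescaled to the same sum, 2 rose and 7 fell with day-1 TAC. The day-7 TAC count was 1 risen and 0 fallen without sham replicate 2 or day-7 TAC replicate 2 or 3, and the 5 lower between the TAC groups were 2 or 3 without any 1 day-7 TAC library or day-1 TAC replicate 1. The scaffold gene Aff1 fell by 0.53 with day-1 TAC (SE 0.08, adjusted p = 0.000814), and Med13l, a Mediator kinase module gene, by 0.41 (SE 0.08, adjusted p = 0.00413). Aff4, a paralogue of Aff1, rose by 0.47 with day-7 TAC (SE 0.08, adjusted p = 0.00298) and differed by -0.66 between day-1 and day-7 TAC (SE 0.08, adjusted p = 0.00155).

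Among the other CDKs, Cdk18, of the PCTAIRE kinases, had 3.77, 3.54 and 3.81 with day-1 TAC, 3.27, 3.52 and 3.38 with day-7 TAC, and 3.27, 2.99 and 3.00 in sham. It rose by 0.62 with day-1 TAC (SE 0.13, adjusted p = 0.00425) and stood at 0.30 with day-7 TAC (SE 0.13, adjusted p = 0.096), and the TAC groups did not differ past the threshold (0.32, adjusted p = 0.106). Its paralogues Cdk16 and Cdk17 were not called, with log2 fold changes against sham between -0.21 and -0.06, although Cdk16 with day-1 TAC was called without day-7 TAC replicate 2 (-0.21, adjusted p = 0.0395). Cdk5, Cdk14 and Cdk20 were not called either, and Cdk15 did not pass the filter, with 6, 7 and 3 reads with day-1 TAC, 2, 1 and 2 with day-7 TAC, and 7, 5 and 3 in sham. With no filter its log2 fold change was called with day-7 TAC against sham (-1.56, adjusted p = 0.0466) and between the TAC groups (1.74, adjusted p = 0.0469). Per kilobase of exon, Cdk16 was the CDK with the highest level in sham, at 40.0, with 34.6 with day-1 TAC and 36.4 with day-7 TAC. Genes related by name but outside the rule included Ccnyl1, which rose by 0.29 (adjusted p = 0.0247), and Ccndbp1, which fell by 0.32 (adjusted p = 0.0314), with day-1 TAC.

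**Figure D5:**
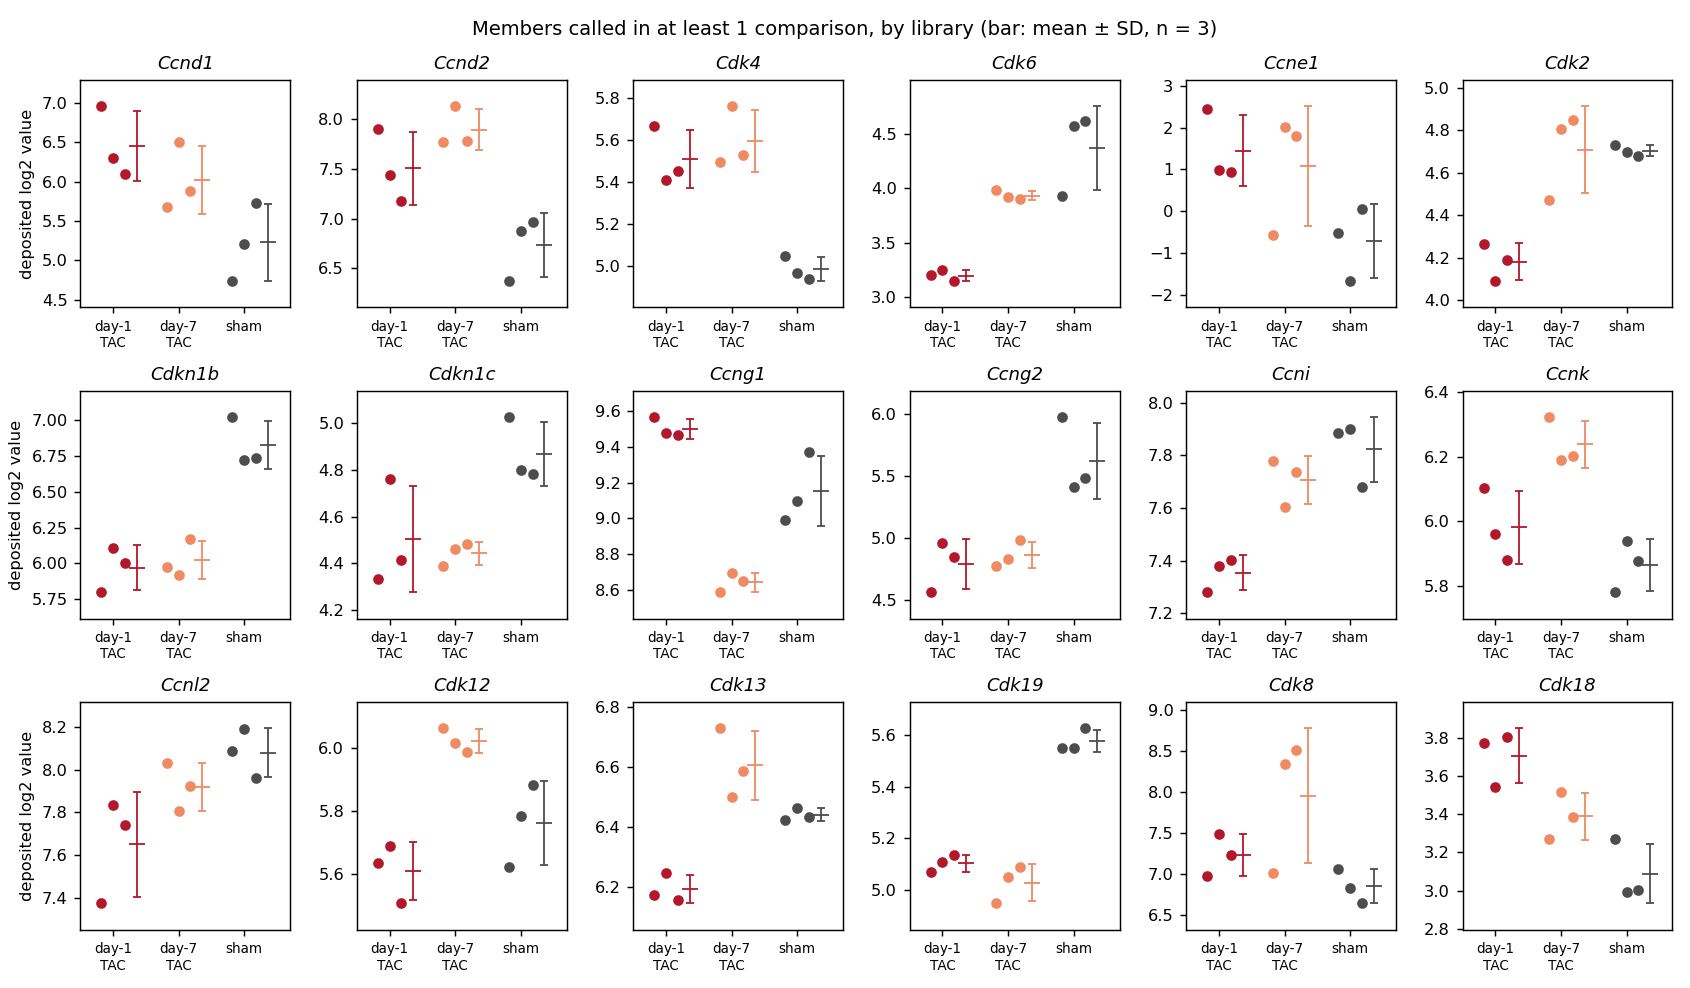
Deposited log2 values (y axis) of the 18 members called in at least 1 comparison, by library, in the order day-1 TAC, day-7 TAC and sham; points are libraries and bars the mean ± SD (n = 3). Ccnd2 and Cdk4 lie above sham in both TAC groups, Cdkn1b, Cdkn1c, Cdk19 and Ccng2 lie below it in both, and Ccng1 lies above it with day-1 TAC and below it with day-7 TAC. Cdk6 and Cdk2 are lowest with day-1 TAC.

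Counted over the comparisons, 18 of the 42 tested members (42.9%) were called at least once and 24 in none, while 49.2% of all tested genes were called at least once. With both TAC groups against sham, 2 rose in both, 4 fell in both and 1 was called in opposite directions, while 8 were called with day-1 TAC alone and 3 with day-7 TAC alone. Of all tested genes, 7.23% rose in both, 10.02% fell in both, 0.277% were called in opposite directions, 17.3% were called with day-1 TAC alone and 11.4% with day-7 TAC alone. The members' 4.76%, 9.52%, 2.38%, 19.0% and 7.14% in the same order were counted without a test against these shares. Of the 6 members called between the TAC groups, the call held in all 9 fits that leave out a library for 5, the exception being Ccni. Against sham it held in all 9 for 10 of 15 members with day-1 TAC and 7 of 10 with day-7 TAC. Groups did not overlap in 19 of 42 members with day-1 TAC against sham (48% of all tested genes), in 17 with day-7 TAC against sham (46.7%) and in 10 between the TAC groups (38.9%).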

How the data were processed

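Total RNA of left ventricle was enriched for polyadenylated RNA, made into ScriptSeq v2 libraries and sequenced for 50 cycles from 1 end, per the labels' protocols. The deposited table holds log2 values per gene and library, which the file headers name TMM (trimmed mean of M-values). The tools Trim Galore, STAR and edgeR and the build mm10 come from the submitters' processing notes; no version, and no strand setting for counting, is given in the sources used here. On the linear scale all values of a library were whole multiples of its lowest value within 0.001 reads, so reads were recovered with that value as 1 read; they describe depth and were not tested. The recovered total was 18538900 to 26529531 reads per library, which sets the precision of low genes. Medians of the libraries were equal to within 0.0028 log2 units, whereas linear sums were not. A rescaling to the same linear sum was therefore tried. Whether TMM alone gave such equal medians was not tested.

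The 12 rows of 3 repeated symbols were left out. Genes with a log2 value above 0 in at least 3 libraries (13712) were tested with limma 3.58.1 in R 4.3.3, with an intensity trend, 1 mean per group and all 9 libraries in the fit, and p-values were adjusted over all of them by the Benjamini-Hochberg method. Calls needed an adjusted p under 0.05. Of the sham columns, 2 carry the same name, so they were used as sham replicates 2 and 3 in column order, a name only. Members and gene lists were chosen with earlier results of these data known. Values in every library were given for the members with the smallest F p-values and for fixed members of each role, and for each list the 3 genes with the smallest F p-value were named; Ccnb2, Ccnf, Ccne2, Cdk8 and Ccnl2, Ccnj, Ccny and the CDKs outside that rule were named after their values were seen. Exon lengths and positions are from GENCODE on GRCm38, and promoters from RefSeq. Alternatives were other scalings, filters, priors, a pseudocount of 1, a minimum fold change of 1.2, the compared groups alone, a replicate block and each library left out. A gene withheld for evaluation is not reported here.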

Additional observations from a re-analysis of the deposited data

Results flagged for a closer look

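The effects of day-1 and day-7 TAC differed by a direct test for 6 members, in which day-1 TAC is set against day-7 TAC. The shared sham libraries cancel from the fold change, but they still enter the estimate of spread behind the p-value. Ccng1 differed by 0.86 on the log2 scale, higher with day-1 TAC. The other 5 were lower with day-1 TAC: Cdk6 by a log2 fold change of -0.73, Cdk2 of -0.53, Cdk12 of -0.41, Cdk13 of -0.41 and Ccni of -0.35. All 3 day-1 TAC libraries lay on one side of all 3 day-7 TAC libraries for each of the 6. Age at surgery and time under load cannot be told apart in these differences.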

How the results depend on the processing

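Requiring a minimum fold change of 1.2 left 1428, 1066 and 273 genes and 4, 5 and 1 members called with day-1 TAC against sham, day-7 TAC against sham and day-1 against day-7 TAC. With both day-7 TAC replicates 2 and 3 left out, chosen after seeing the data, 1000 genes and 2 members were called with day-7 TAC against sham, and 254 genes and 2 members between the TAC groups; that leaves 1 day-7 TAC library, assumed to vary like the other groups. Leaving out a single library gave 3259 to 4525, 2594 to 4404 and 1261 to 2491 genes, 10 to 16, 7 to 11 and 5 to 8 members in the 3 comparisons, and 13 to 17 members by the F test. Between the TAC groups, deviations from the group means correlated at -0.224, -0.11 and -0.0365 for same-numbered libraries. With 3 libraries per group these values cannot decide whether a replicate number marks paired samples. The fit with a replicate block over the TAC libraries called 1167 genes and 6 members; Cdk2 lost its call (adjusted p = 0.0595) and Cdkn1a gained one (adjusted p = 0.0279).

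Directions changed for values that were not called. Between the TAC groups Cdkn1b was 0.019 with quantile normalization. With day-7 TAC replicates 2 and 3 out, Cdk2 was -0.23 and Cdk1 -0.65 against sham, and Cdk4 was 0.016 and Ccng2 0.011 between the TAC groups. Across fits that leave out a library, day-1 TAC against sham ran from -0.31 to 0.84 for Ccna2, -1.15 to 0.31 for Ccnb1 and -0.47 to 0.33 for Cdkn1a. Day-7 TAC against sham ran from -0.64 to 0.51 for Ccna2, -0.24 to 0.64 for Cdk1, -0.064 to 0.12 for Cdk2 and -0.011 to 0.12 for Cdk9. Day-1 against day-7 TAC ran from -0.24 to 1.02 for Ccna2, -0.28 to 1.18 for Ccnb1, -0.45 to 0.85 for Ccne1, -0.16 to 0.038 for Ccng2, -0.12 to 0.034 for Cdkn1b, -0.069 to 0.14 for Cdkn1c and -0.31 to 0.34 for Cdkn2c. The cause was not tested. No filter and a pseudocount of 1 kept the direction and side of the threshold of the 69 fold changes (3 each) of the 23 members given in every library. With no filter 16, 11 and 7 members were called in the 3 comparisons and 19 by the F test; the calls added in the comparisons were of Cdkn2b and Cdk15. Depth limits Ccnb1, Ccne1 and the 4 members under the filter.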
